A study of Mus musculus with 6 samples.

Results

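Fc receptors bind the constant part of antibodies, and 8 genes of antibody and anaphylatoxin sensing were followed in conventional dendritic cells of spleen and lymph node. The genes were Fcer1g, Fcgr1, Fcgr2b, Fcgr3, Fcgr4, Fcgrt, C3ar1 and C5ar1, taken by symbol, and all 8 had a probe set among the 12393 genes of the array. Where several probe sets measured a gene, the brightest on average stood for it; a probe set is the group of short oligonucleotides that measures a transcript. Dendritic cells (DCs) are antigen-presenting cells, and those studied here were sorted by flow cytometry on CD11c, the integrin chain encoded by Itgax. All came from BALB/c mice, an inbred strain, with no treatment or genetic change named in the labels. The animals' age, which lymph nodes were taken and whether arrays came from separate or pooled animals are not given in the sources used here. Each organ had 3 Affymetrix 3′ arrays, and since these may be technical repeats, p-values speak only of the variation among the 6 arrays, whose number limits the precision. The comparison asked how the DCs of both organs differ in expression.

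Activating Fc receptors for IgG, the products of Fcgr1, Fcgr3 and Fcgr4, pair with the common γ chain encoded by Fcer1g, which carries them to the cell surface and signals through an immunoreceptor tyrosine-based activation motif (ITAM) to the kinase Syk. The product of Fcgr2b instead holds an inhibitory motif (ITIM) that recruits the lipid phosphatase encoded by Inpp5d, and in DCs the balance of both kinds sets the response to immune complexes. Fcgrt encodes the neonatal Fc receptor, which pairs with β2-microglobulin, spares IgG from breakdown and sorts antigen bound to IgG inside DCs. C3ar1 and C5ar1 encode the G protein-coupled receptors of the complement fragments C3a and C5a.

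Some markers went against the labels of these arrays, which bears on each direction given here. Migratory, mature DCs are known for lymph node, yet of 11 measured markers of such cells 7 passed as higher in spleen-labelled arrays and 0 as lower. Ccl22, a chemokine gene of mature DCs, was 4.04 to 4.56 on the log2 scale in the arrays labelled lymph node and 9.26 to 9.38 in those labelled spleen. The groups are therefore named as labelled, and each difference is spleen minus lymph node. Of 9 conventional DC markers, Itgax alone passed, as lower in spleen-labelled arrays, and the markers Zbtb46 and Flt3 had log2 levels of at least 7.13 on every array. Groups did not overlap for 7 of the 9, all lower in spleen-labelled arrays, beside 12.7% of all genes. The summed intensity of the 9 was 22656.6 to 24098.5 in the lymph node arrays and 13258.6 to 19292.7 in the spleen arrays. Of 10 markers of plasmacytoid DCs, 3 passed as higher in spleen-labelled arrays and 0 as lower. All 10 differences lay above 0, with a median of 1.74. Groups did not overlap for 7 of these 10, beside 11.8% of all genes on the higher side. The bacterial poly-A controls, spiked into the RNA, had a mean log2 level of 7.39 to 7.96 in the lymph node arrays and 8.41 to 9.06 in the spleen arrays. These levels did not overlap between the groups, so a fit with them as a covariate can hardly part them from the organ label. Their part in the differences of the receptor genes was not tested beyond that fit, given below.

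The 250 bases before the annotated start are shown for 4 of these genes. They encode the γ chain and the activating IgG receptors, each of which pairs with that chain. The sequences are from RefSeq (GRCm38.p6), 5′ to 3′ in the direction of the gene, and capitals mark the core of the sites bound by PU.1, the myeloid factor encoded by Spi1 (GAGGAA or, on the other strand, TTCCTC).
Fcer1g, chr1:171234350-171234599, strand -: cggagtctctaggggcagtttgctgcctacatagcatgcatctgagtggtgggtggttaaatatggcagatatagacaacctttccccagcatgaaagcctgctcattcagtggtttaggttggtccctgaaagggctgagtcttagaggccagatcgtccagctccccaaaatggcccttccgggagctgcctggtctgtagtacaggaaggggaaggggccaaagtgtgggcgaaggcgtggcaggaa
Fcgr4, chr1:171018676-171018925, strand +: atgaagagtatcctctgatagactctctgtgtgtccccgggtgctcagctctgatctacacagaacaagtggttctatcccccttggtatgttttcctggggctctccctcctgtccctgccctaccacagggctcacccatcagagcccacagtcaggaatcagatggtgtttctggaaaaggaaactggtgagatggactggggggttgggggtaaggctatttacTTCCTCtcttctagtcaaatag
Fcgr3, chr1:171059395-171059644, strand -: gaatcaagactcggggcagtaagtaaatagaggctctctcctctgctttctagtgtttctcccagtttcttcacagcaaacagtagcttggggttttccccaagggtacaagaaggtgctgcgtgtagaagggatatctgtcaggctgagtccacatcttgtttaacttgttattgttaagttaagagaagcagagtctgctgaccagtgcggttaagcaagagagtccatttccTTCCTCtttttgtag
Fcgr1, chr3:96293970-96294219, strand -: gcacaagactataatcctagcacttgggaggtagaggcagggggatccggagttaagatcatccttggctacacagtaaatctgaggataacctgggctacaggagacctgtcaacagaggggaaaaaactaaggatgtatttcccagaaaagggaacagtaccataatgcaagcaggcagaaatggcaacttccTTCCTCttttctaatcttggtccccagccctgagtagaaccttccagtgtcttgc
The core was found in the windows of Fcgr1, Fcgr3 and Fcgr4, in each once, as TTCCTC and ending 49, 9 and 16 bases before the start. It was in 3 of the 8 genes and in 23.3% of all 32851 windows of this length. The windows of Fcer1g, Fcgr2b, Fcgrt, C3ar1 and C5ar1 did not hold these letters. The γ-interferon activated site (TTCNNNGAA, the same on both strands) was found in the window of Fcgr1 and in 7.02% of all windows, and TATAAA (or TTTATA) in that of C3ar1 and in 12.4% of all windows. Fcgr3 has a second annotated start 9 bases from the first, and its window holds the same copy of the PU.1 core. A match of letters is a description and not a measured site.

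Fcer1g, the shared signalling chain, was the member that passed the test, and it was lower in the arrays labelled spleen. Its log2 intensity was 8.53, 8.70 and 7.90 on lymph node arrays 1 to 3 and 6.21, 6.97 and 6.96 on spleen arrays 1 to 3. Every lymph node array lay above every spleen array, with spleen array 1 the lowest of all 6. The means were 8.38 ± 0.42 and 6.71 ± 0.44 (SD, n = 3 each), a 3.17-fold lower level in the arrays labelled spleen. The difference of -1.66 ± 0.29 (SE) had an adjusted p of 0.0304 in limma, and its 95% confidence interval ran from -2.33 to -0.996. In sorted cells measured in bulk, fewer cells of a type and less RNA per cell cannot be told apart.

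Among the 8 members 1 passed as lower, Fcer1g, and 0 as higher (limma, threshold of 0.05 on the adjusted p). Over all genes 3.4% passed, 1.37% as lower and 2.03% as higher in spleen-labelled arrays. The groups did not overlap for 3 members, all lower in the arrays labelled spleen, while 24.5% of all genes had such groups, 12.7% lower and 11.8% higher. The median difference of the 8 members was -0.38, beside -0.0053 for all genes, and 7 of the 8 differences lay below 0, as did 50.7% of all genes. Leaving out lymph node array 1 gave -1.59 (adjusted p = 0.134), leaving out lymph node array 2 gave -1.504 (adjusted p = 0.127), and leaving out spleen array 1 gave -1.41 (adjusted p = 0.0737), so the call was lost in each. In these fits the number of all genes past the threshold fell too, from 421 to 56, 47 and 130. With the poly-A control level as a covariate, Fcer1g differed by -0.93 ± 0.63 (SE, adjusted p = 0.908), a fit in which 0 of all genes passed in limma and 701 had an unadjusted p under 0.05.

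**Figure D1:**
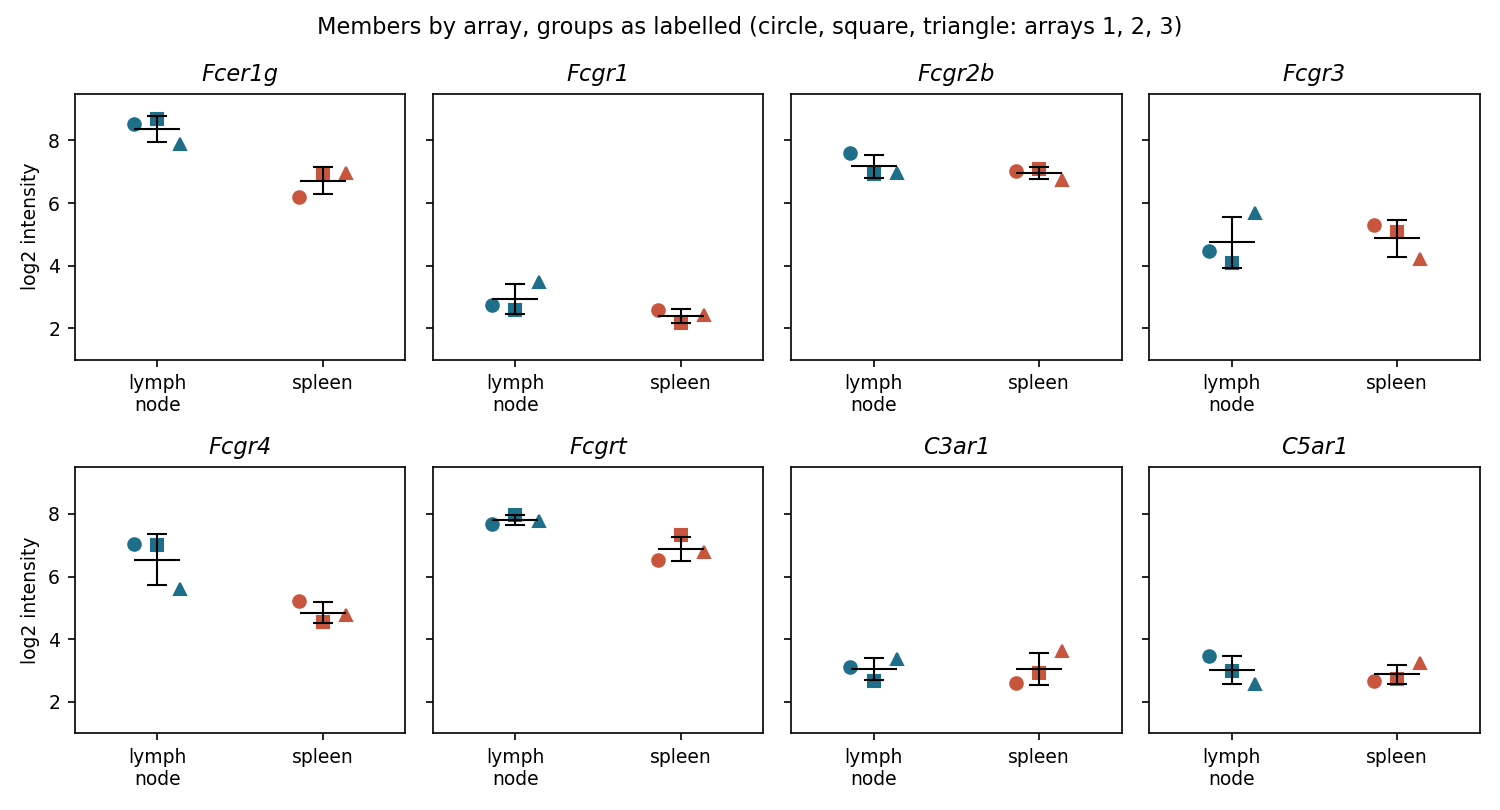
Log2 intensity of the 8 genes on each array (vertical axis), by group as labelled, with arrays 1, 2 and 3 as circles, squares and triangles and the mean with its SD (n = 3) in black. Fcer1g, Fcgr4 and Fcgrt have groups that do not overlap; Fcgr1, C3ar1 and C5ar1 lie near the bottom of the scale on all 6 arrays.

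Of the IgG-binding α chains, Fcgr4 showed the widest gap and did not pass. Fcgr4 encodes an activating receptor for the IgG2 subclasses that is known from monocytes, macrophages and neutrophils. The 3 lymph node arrays read 7.03, 7.0 and 5.60 in order on the log2 scale, and the spleen arrays 5.23, 4.55 and 4.78. Lymph node array 3 lay apart from the other two of its group and close to spleen array 1, though the groups did not overlap. The difference was -1.69 ± 0.40 (SE), 3.23-fold, with an adjusted p of 0.0632 in limma (unadjusted p = 0.00291) and a 95% confidence interval of -2.61 to -0.77. Without lymph node array 3 the difference was -2.16 and passed (adjusted p = 0.0172).

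Fcgr3, which encodes the low-affinity activating receptor, varied within each group by more than between them. Log2 intensities were 4.49, 4.10 and 5.67 on lymph node arrays 1 to 3 and 5.31, 5.08 and 4.22 on spleen arrays 1 to 3. Its highest array was lymph node array 3, on which Fcgr4 was the lowest of its group, and the groups overlapped. The difference was 0.12 ± 0.44 (SE, adjusted p = 0.922 in limma), with a 95% confidence interval from -0.90 to 1.14 that leaves room for a change in either direction. Its sign turned without lymph node array 1 (-0.012), lymph node array 2 (-0.21) or spleen array 1 (-0.10).

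Fcgr1 encodes the high-affinity receptor for IgG. Its log2 intensity was 2.74, 2.58 and 3.47 on the lymph node arrays and 2.58, 2.17 and 2.43 on the spleen arrays, and the groups met at 2.58. All these values lay near the 1.63 to 2.77 of the TrpnX control probe sets, whose transcript is not among the spiked controls. Its difference of -0.54 ± 0.26 (SE, adjusted p = 0.313 in limma; 95% confidence interval -1.13 to 0.058) therefore rests on values close to background.

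Fcgr2b, the inhibitory receptor, was measured by 4 probe sets. The brightest gave 7.61, 6.94 and 6.97 on lymph node arrays 1 to 3 and 7.04, 7.09 and 6.74 on spleen arrays 1 to 3, so that the groups overlapped. The difference was -0.22 ± 0.23 (SE, adjusted p = 0.681 in limma) with a 95% confidence interval of -0.74 to 0.31. The other 3 probe sets differed by -0.63, -0.33 and -0.0051, and 0 of the 4 passed over all probe sets. The widest difference, -0.63 ± 0.27 (SE, adjusted p = 0.277), came from a probe set designed on another sequence record, which read 6.17, 6.11 and 6.05 on the lymph node arrays and 4.84, 5.74 and 5.86 on the spleen arrays. Its groups did not overlap, while spleen array 1 alone lay far below the rest. That probe set minus the brightest differed between groups by -0.41 (exact permutation test, two-sided, p = 0.6). Fcgr2b and Fcgr3 are paralogs with nearly identical outer domains, and the brightest Fcgr2b probe set has the suffix for designs that can detect several transcripts, so cross-reaction between them was not tested and the level of either is uncertain.

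**Figure D2:**
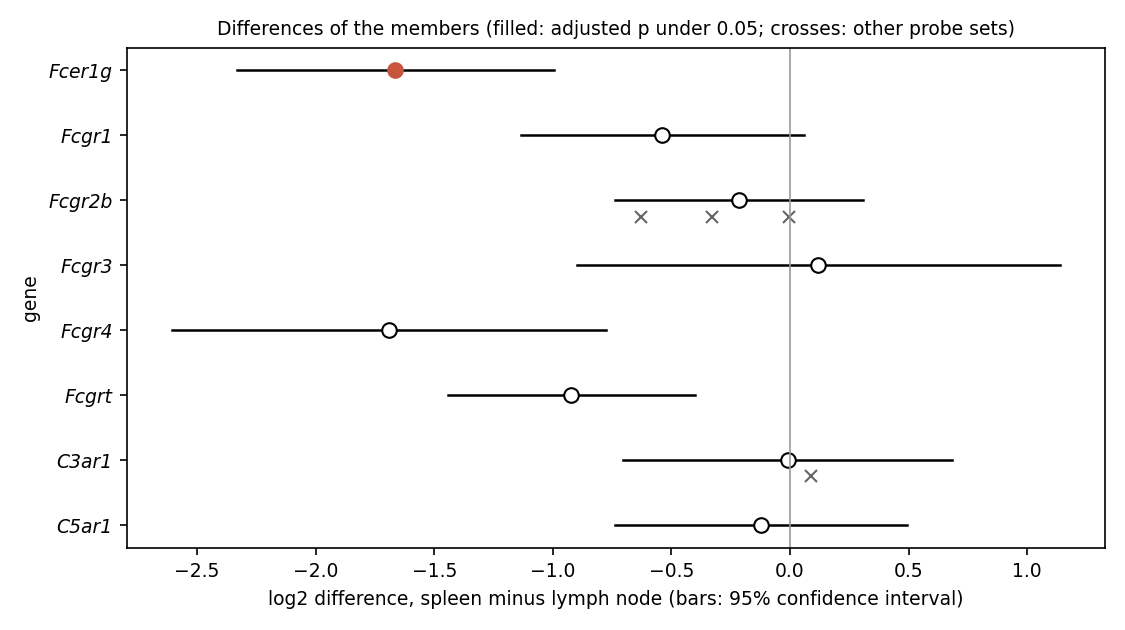
Log2 difference, spleen minus lymph node (horizontal axis), of each gene with its 95% confidence interval, filled where the adjusted p is under 0.05, and crosses for other probe sets of the same gene. Fcer1g at -1.66 and Fcgr4 at -1.69 lie side by side, with the wider interval for Fcgr4; the intervals of Fcgr1, Fcgr2b, Fcgr3, C3ar1 and C5ar1 include 0.

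Fcgrt, the neonatal Fc receptor, was lower in the arrays labelled spleen by less than Fcer1g and did not pass. Arrays gave log2 intensities of 7.67, 7.97 and 7.78 on lymph node arrays 1 to 3 and 6.54, 7.31 and 6.79 on spleen arrays 1 to 3. The groups did not overlap, and the lymph node arrays lay closer together (SD 0.15, n = 3) than the spleen arrays (SD 0.40, n = 3). The difference was -0.92 ± 0.22 (SE), 1.89-fold, with an adjusted p of 0.0705 in limma (unadjusted p = 0.00371) and a 95% confidence interval of -1.44 to -0.40. It passed without spleen array 2 (-1.14, adjusted p = 0.0377). B2m, which encodes the partner chain β2-microglobulin, differed by 0.075 ± 0.15 (SE, adjusted p = 0.849), and its sign turned once the poly-A controls entered the fit (-0.020).

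The anaphylatoxin receptor genes lay near the bottom of the scale in both groups. C3ar1 had log2 intensities of 3.12, 2.68 and 3.38 on the lymph node arrays and 2.61, 2.91 and 3.63 on the spleen arrays, a difference of -0.0099 ± 0.30 (SE, adjusted p = 0.992 in limma). Its second probe set was lower still, from 1.85 to 2.66, with a difference of 0.091. C5ar1 gave 3.46, 3.00 and 2.56 on the lymph node arrays and 2.68, 2.74 and 3.23 on the spleen arrays, a difference of -0.12 ± 0.27 (SE, adjusted p = 0.863). Groups overlapped for both genes, and with the TrpnX controls at up to 2.77 these arrays could not resolve a difference in either. Fcgr1, C3ar1 and C5ar1 were the 3 members with a mean under 4 in both groups.

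Ratios within an array set the adaptor against each receptor. Fcer1g minus Fcgr2b, as a log2 ratio within each array, was 0.92, 1.76 and 0.93 on the lymph node arrays and -0.83, -0.12 and 0.22 on the spleen arrays. These ratios did not overlap, and their difference of -1.45 had the smallest p that 3 against 3 arrays can give (exact permutation test, two-sided, p = 0.1; 0.233 adjusted over 7 ratios), so this design could not pass 0.05. Fcer1g minus Fcgr3 overlapped between groups (difference -1.78, exact permutation p = 0.2; 0.28 adjusted). Fcer1g minus Fcgr4 differed by 0.027 (exact permutation p = 1), with 0.98 to 2.41 in the spleen arrays and 1.496 to 2.30 in the lymph node arrays.

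Tyrobp encodes DAP12, an adaptor of the same kind as the γ chain that serves other receptors. Its log2 intensity was 11.22, 11.18 and 11.06 on the lymph node arrays and 11.01, 10.81 and 11.37 on the spleen arrays. The groups overlapped, and the difference was -0.089 ± 0.19 (SE, adjusted p = 0.856 in limma), with a sign that turned under a second quantile normalization (0.0093) and without spleen array 2 (0.037). Fcer1g minus Tyrobp was -2.69, -2.48 and -3.16 on the lymph node arrays and -4.80, -3.84 and -4.41 on the spleen arrays, without overlap (difference -1.57, exact permutation p = 0.1, the smallest possible; 0.233 adjusted over the 7 ratios).

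Receptors other than the IgG receptors that signal through Fcer1g had 7 of 14 listed genes measured, of which 0 passed in limma in either direction. The median difference was -0.41, and 4 of the 7 had lower values in every spleen array than in any lymph node array, beside 12.7% of all genes. Clec4d, a lectin for mycobacterial lipids, differed by -0.80 ± 0.20 (SE, adjusted p = 0.0732), and Clec4b1, the lectin DCAR, by -1.06 ± 0.30 (SE, adjusted p = 0.103). Clec4n, which encodes dectin-2, a receptor for fungal mannans, had the widest gap at -1.85 ± 0.63 (SE, adjusted p = 0.162), with 7.74, 7.74 and 7.33 on the lymph node arrays and 6.44, 6.75 and 4.08 on the spleen arrays; it is named for that gap, after its values were seen. Of Tyrobp and its receptors 0 of 7 passed, and the nearest were Clec5a (0.92 ± 0.24 SE, adjusted p = 0.0835), a receptor of myeloid cells, and Klrk1 (1.28 ± 0.41 SE, adjusted p = 0.138), which encodes NKG2D. Clec5a lay near background, at 1.89 to 2.29 on the lymph node arrays and 2.54 to 3.31 on the spleen arrays.

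Other antibody receptors had 1 of 11 measured genes past the threshold, Fcrl1, which was lower in spleen-labelled arrays, with a median difference of 0.075. Fcrl1 encodes an Fc receptor-like protein known from B cells. Its log2 intensity was 7.75, 7.51 and 7.53 on the lymph node arrays and 6.20, 6.11 and 6.22 on the spleen arrays, 2.68-fold lower (adjusted p = 0.00649 in limma). It kept its call in each fit without 1 array. Of the 11 differences, 5 lay below 0 and 6 above. Fcrla had the widest, 2.45 ± 0.87 (SE, adjusted p = 0.180 in limma), with groups that overlapped. Fcrls differed by 0.70 ± 0.18 (SE, adjusted p = 0.0810 in limma), and its groups did not overlap. Both are named after their values were seen. The chains of the IgE receptor of mast cells and basophils, Fcer1a and Ms4a2, were at 2.07 to 3.00 and 1.96 to 2.35, near background on all arrays.

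Downstream of the ITAM, 2 of 21 measured genes passed as lower and 2 as higher, with a median of -0.17. The lower genes were Fgr, a Src-family kinase of myeloid cells (-1.11 ± 0.21 SE, adjusted p = 0.0358), and Pik3cd, the catalytic phosphoinositide 3-kinase chain of leukocytes (-0.93 ± 0.20 SE, adjusted p = 0.0480). Fyn, another Src-family kinase, was higher (1.65 ± 0.34 SE, adjusted p = 0.0454), as was the adaptor gene Blnk (3.60 ± 0.48 SE, adjusted p = 0.0119), which also stands in the plasmacytoid DC marker list. Syk, the kinase that docks on the phosphorylated γ chain, differed by -0.16 ± 0.18 (SE, adjusted p = 0.712). Of these, Fgr lost its call without any of 5 arrays, Pik3cd without any of 5, Fyn without any of 4 and Blnk without either of 2 (lymph node arrays 1 and 2). Pik3cd also missed the threshold with median centring (adjusted p = 0.0503), with a replicate block (0.0704), with an offset of 16 (0.0514), without probe sets of shared design (0.0502) and with all probe sets adjusted together (0.0552). Fyn missed it with the mean of its probe sets (1.40, adjusted p = 0.0980) or their median (0.0998), with the offset (0.0760) and with all probe sets adjusted together (0.0521).

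Of 10 measured genes of inhibitory ITIM signalling 0 passed in limma, with a median of -0.28. Inpp5d, which encodes the phosphatase SHIP1, differed by -0.30 ± 0.24 (SE, adjusted p = 0.579). Csk, the kinase that holds Src-family kinases in check, had a difference of -1.34 ± 0.31 (SE, adjusted p = 0.0599), and Ptpn6, the phosphatase SHP-1, one of -0.98 ± 0.25 (SE, adjusted p = 0.0802). Both had groups that did not overlap.

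Complement components, receptors and regulators had 2 of 20 measured genes lower and 0 higher, with a median of 0.028. Cr2, known as a receptor for C3 fragments on B cells, differed by -1.60 ± 0.33 (SE, adjusted p = 0.0466 in limma) and kept its call in 2 of 6 fits without 1 array. That call also ended with median centring (adjusted p = 0.0521), quantile normalization (0.0509), the offset of 16 (0.0644), all probe sets adjusted together (0.0534) and without both arrays numbered 3 (0.0619). Itgax, whose product forms complement receptor 4, differed by -0.97 ± 0.17 (SE, adjusted p = 0.0310); it kept its call in 2 of 6 and lost it without both arrays numbered 3 (adjusted p = 0.0848). Fcer1g minus Itgax differed by -0.69 between groups that overlapped (exact permutation p = 0.2; 0.28 adjusted). Of 13 G protein signalling genes below the anaphylatoxin receptors 0 passed, with a median of -0.24 and the smallest adjusted p for Plcb2 (-0.95 ± 0.21 SE, adjusted p = 0.0556), a phospholipase, and Gnb2 (-0.82 ± 0.24 SE, adjusted p = 0.113), a G protein chain.

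**Figure D3:**
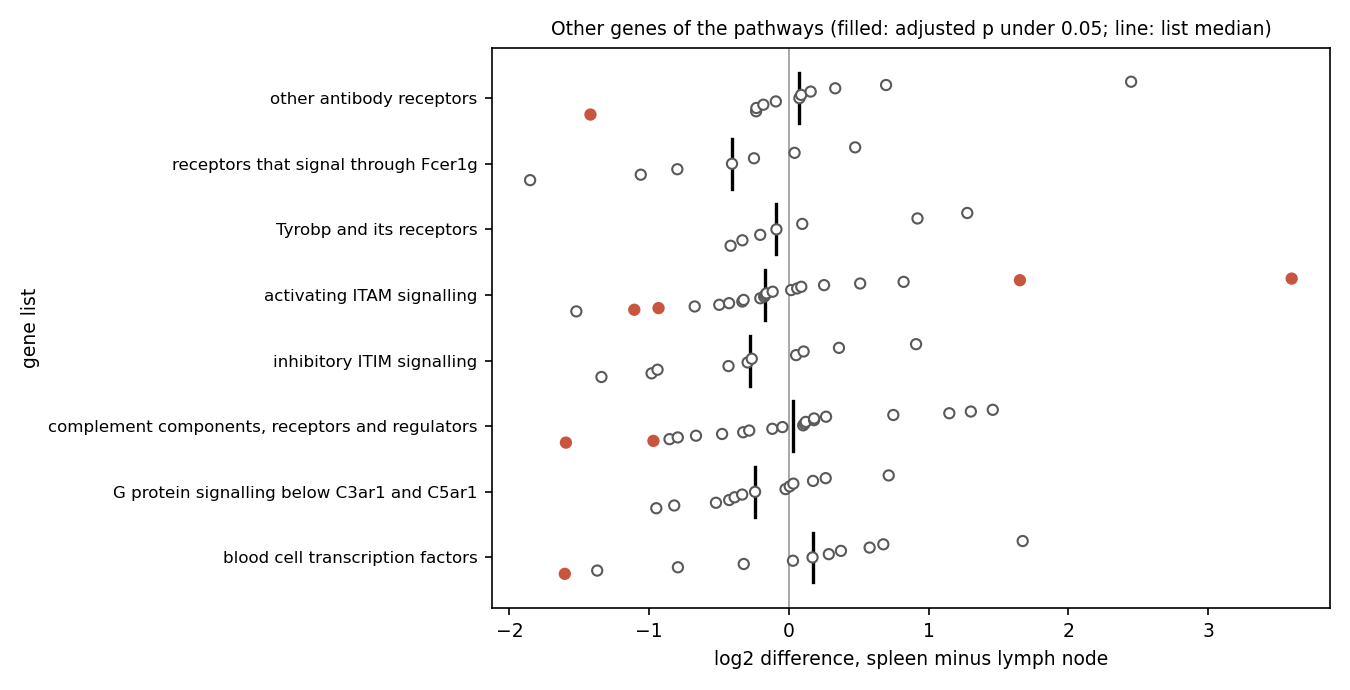
Log2 difference, spleen minus lymph node (horizontal axis), of the measured genes of 8 lists around the Fc and anaphylatoxin receptors, one point per gene, filled where the adjusted p is under 0.05, with each list's median as a line. The filled points are 6 of 100 distinct genes on the lower side and 2 on the higher side.

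Among the 100 distinct genes of the 8 lists, 6 were lower and 2 higher, against 1.37% and 2.03% of all genes, and the median difference was -0.12. The list of blood cell transcription factors had 1 of 11 measured genes lower, Tfeb, and 0 higher. Tfeb, a regulator of lysosome genes, differed by -1.60 ± 0.29 (SE, adjusted p = 0.0341 in limma), and it lost its call without any of 4 arrays and with the offset of 16 (adjusted p = 0.0599). Spi1, named here for the promoter sequences above after its values were seen, was 7.85, 8.28 and 7.35 on the lymph node arrays and 5.95, 6.82 and 6.60 on the spleen arrays. Its difference of -1.37 ± 0.30 (SE) missed the threshold (adjusted p = 0.0549).

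Fcgr2b, Fcgr4, Fcgr3 and Fcer1g lie in this order on chromosome 1 within a run of 11 protein-coding genes of RefSeq, GRCm38.p6. Of the 7 genes between them 5 had a named probe set, and 0 of these 5 passed in limma in either direction. Nr1i3, a nuclear receptor gene of liver, differed by -0.69 ± 0.16 (SE, adjusted p = 0.0660) at levels of 2.17 to 3.14, near background. Sdhc (-0.41), Apoa2 (-0.29), Tomm40l (-0.15) and Pcp4l1 (0.052) had groups that overlapped. Fcgr4 and Fcgr3, which are neighbours, had differences of -1.69 and 0.12.

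**Figure D4:**
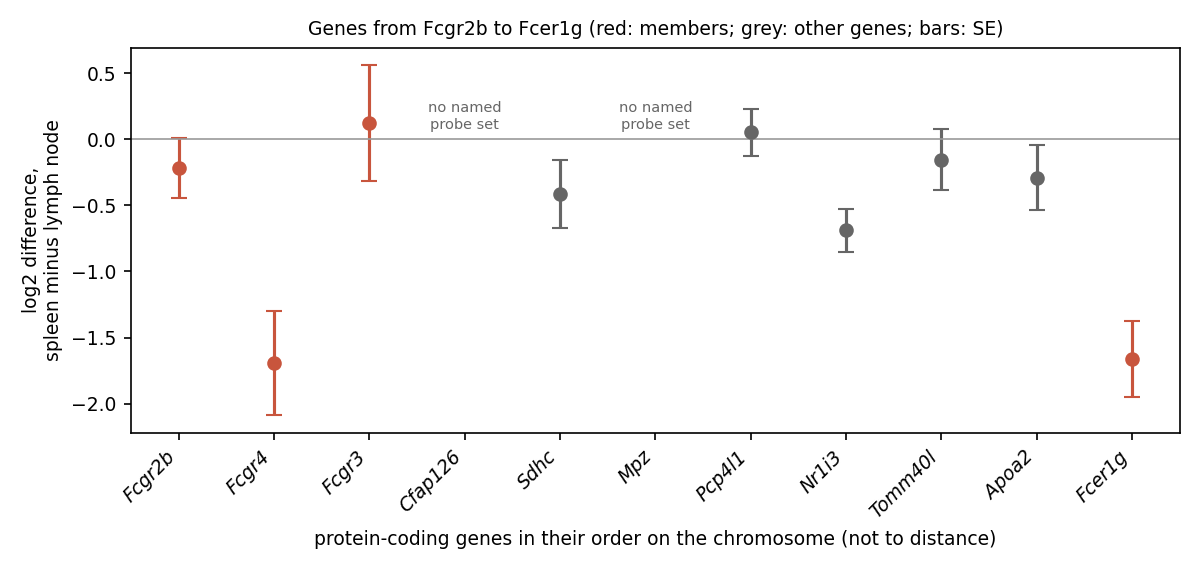
Log2 difference, spleen minus lymph node, with its SE (vertical axis) for the protein-coding genes from Fcgr2b to Fcer1g in their order on chromosome 1, members in red and other genes in grey; distances are not drawn. Fcgr4 at -1.69 and Fcer1g at -1.66 stand below the 5 other measured genes, which lie between -0.69 and 0.052.

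The genes whose profile lay nearest to that of Fcer1g over the 6 arrays were, in this order, Napsa, Rplp2, Lpar1, Tfeb and H3c7. Likeness was the root mean square distance between log2 profiles centred on their means, among the 6192 genes above the median level, and it ran from 0.078 for Napsa to 0.14 for H3c7. Napsa, an aspartic protease gene, was 9.11, 9.33 and 8.41 on the lymph node arrays and 6.63, 7.48 and 7.38 on the spleen arrays. It shared with Fcer1g the dip on lymph node array 3 and the lowest level on spleen array 1. Since it was chosen for its likeness over these same arrays, that is no separate result. Rplp2 encodes a ribosomal protein and Lpar1 a receptor for lysophosphatidic acid.

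Markers of other cells that carry Fc receptors differed in both directions. Of 11 neutrophil markers 1 passed as lower (Camp, adjusted p = 0.0425 in limma) and 0 as higher, and their summed intensity was 224.5 to 769.3 in the lymph node arrays and 106.7 to 176.5 in the spleen arrays. S100a9 was 6.73, 8.83 and 9.20 on lymph node arrays 1 to 3 and 6.18, 3.96 and 4.29 on spleen arrays 1 to 3. Within each group S100a9 was highest on the array where Fcer1g was lowest, but other neutrophil markers ranked the lymph node arrays differently. S100a8, Camp, Ngp, Ltf and Mmp9 were highest of that group on array 2, where Fcer1g was highest. Mmp8 and Lcn2 were highest on array 1, Cxcr2 and Elane on array 3, and Mpo was level on arrays 2 and 3. Elane and Mpo stayed at 2.00 to 2.87 on all arrays, near background. Macrophage markers were higher for 1 of 15 (Marco, 2.09) and lower for 0, with 10 differences below 0 and 5 above. The others above 0 were C1qb (1.30), Siglec1 (1.10), Cd163 (0.76) and Mrc1 (0.37), with groups that overlapped. The summed intensity of all 15 was 1369 to 2556 in the lymph node arrays and 957.1 to 1352 in the spleen arrays. The brightest of them were Csf1r, Cd68 and Adgre1, each with a difference below 0. Cd68 did not overlap between groups (8.04 to 9.05 against 7.01 to 7.79, adjusted p = 0.112). Adgre1 did not overlap either (7.35 to 7.90 against 5.46 to 7.19, adjusted p = 0.174). Both were the lowest of the lymph node group on array 3, as were Fcer1g and Fcgr4, and Cd68 shared with Fcer1g its lowest level on spleen array 1. Csf1r, Vcam1, Slc40a1 and Hmox1 were instead highest on lymph node array 3, as was Fcgr3. Of 9 monocyte markers 0 passed, and Csf1r and Lyz2 overlapped between the groups. Ccr2, a chemokine receptor gene of monocytes, did not overlap and lay the other way, at 6.06 to 7.93 in the lymph node arrays and 8.33 to 9.44 in the spleen arrays (2.10, adjusted p = 0.0681).

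Mast cell and basophil markers had 0 of 10 past the threshold, with Mcpt8, Cpa3 and Cma1 at 2.41 to 3.63. The brightest of them, Kit, was 8.83 to 8.97 in the lymph node arrays and 7.43 to 8.52 in the spleen arrays (-1.01, adjusted p = 0.0953 in limma), and Hdc, next in level, was 5.01 to 5.17 and 4.13 to 4.66 (-0.64, adjusted p = 0.116). Neither overlapped between the groups, and both lay in the direction of Fcer1g. Natural killer cell markers had 0 of 8. B cell markers had 1 of 10 lower, Cr2, which is also in the complement list, and 0 higher. Among lineage markers of conventional DCs, 3 of 9 cDC2 genes were lower (Sirpa, Dtx1 and Cd300a) and 1 higher (Clec10a), beside 1.37% and 2.03% of all genes. Their median was -0.79, and groups did not overlap for 5 lower and 1 higher. Of 8 cDC1 genes 0 passed and their median was 1.21, while groups did not overlap for 5 higher and 1 lower. Over all genes 12.7% had such groups as lower and 11.8% as higher. The part of any of these cells in the difference of Fcer1g was not tested.

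**Figure D5:**
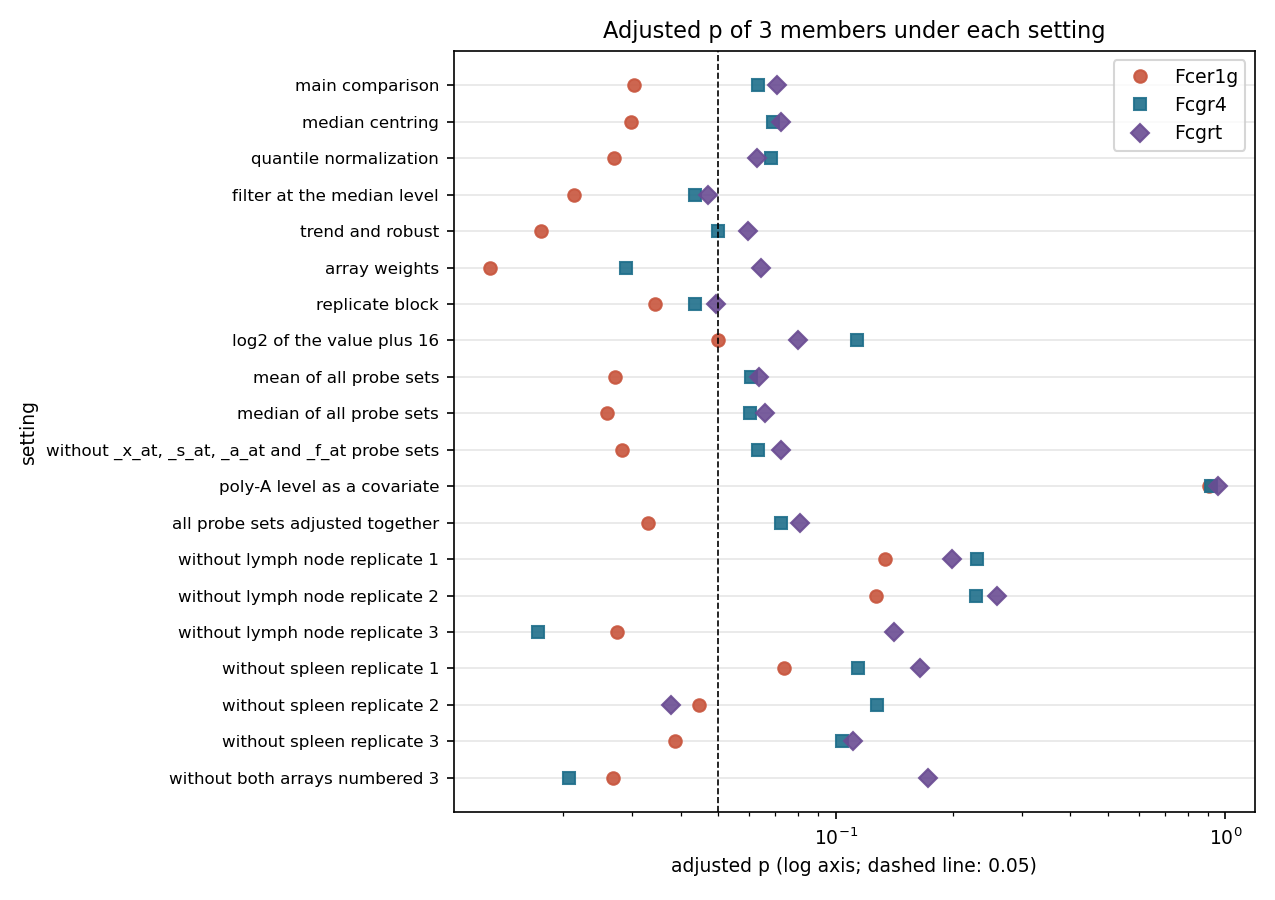
Adjusted p (horizontal log axis, dashed line at 0.05) of Fcer1g, Fcgr4 and Fcgrt in the main comparison and under 19 other settings. Fcer1g lies left of the line except with the poly-A covariate and without lymph node array 1, lymph node array 2 or spleen array 1; Fcgr4 and Fcgrt lie right of it in most settings.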

How the data were processed

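Total RNA of sorted DCs was amplified from 2 ng per the labels' protocols, with 20 ng of carrier RNA in the extraction and an RNA integrity number above 8.4 required. Each deposited number is the linear intensity of a probe set, and the submitters' processing notes name RMA and limma without versions. Because RMA gives log2 values, they must have been returned to a linear scale, and any further scaling is unknown. The medians of the arrays lay between 39.4 and 41.3, and detection calls were not analysed here.

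Of 22690 probe sets, 64 controls were left out, and 20380 others had 1 gene symbol in the array annotation (20351 found through their Entrez identifier in RefSeq, 0 symbols changed). The intensity values were transformed to log2. Groups came from the sample titles and were compared in R 4.3.3 with limma 3.58.1 (lmFit, eBayes), two-sided, at a threshold of 0.05 after Benjamini-Hochberg adjustment across the 12393 genes. No filter was applied. Ratios within arrays were compared with exact permutation tests. The function was tested on simulated data. RefSeq coordinates are given only for the printed sequences.

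The members and lists were chosen with earlier results of these data known. Besides the members, genes past the threshold in each pathway list, or up to 2 with the smallest adjusted p, were named, with Tyrobp, Syk, B2m and Inpp5d always; C5ar2 had no named probe set and was not analysed here. In marker lists the rule took genes past the threshold and the 2 with the highest mean; those printed are of cells that carry Fc receptors, of DCs, or chosen after their values were seen. Alternatives were scaling, a level filter, eBayes options, array weights, a replicate block, an offset of 16, other probe set rules, the poly-A level, left-out arrays and a threshold of 0.01.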

Additional observations from a re-analysis of the deposited data

How the results depend on the processing

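Fcer1g passed in 15 of 20 alternatives, with differences of -2.03 to -0.93; it lost its call with the poly-A covariate (-0.93, adjusted p = 0.908), at a threshold of 0.01 (-1.66), and without lymph node array 1 or 2 or spleen array 1 (-1.90 to -1.41 with 1 array left out). Fcgr4 passed in 6 of 20: with the filter at the median level, with trend and robust and with a replicate block (-1.69 in each), with array weights (-1.95), without both arrays numbered 3 (-2.13) and without lymph node array 3 (-2.16 to -1.45 with 1 array left out). Fcgrt passed in 3 of 20: with the filter and with a replicate block (-0.92 in both) and without spleen array 2 (-1.14 to -0.75 with 1 array left out). Fewer genes are tested under the filter; for other settings the cause was not tested. Signs turned with the poly-A covariate for Fcgr2b (0.56), Fcgr3 (-0.16), C5ar1 (0.29), Syk (0.43), B2m (-0.020) and Inpp5d (0.63). C3ar1 turned with median centring (0.0086), the offset of 16 (0.0047) and the mean or median of its probe sets (0.040). Tyrobp turned with quantile normalization (0.0093). With 1 array left out the ranges were -0.33 to 0.0037 for Fcgr2b, -0.21 to 0.58 for Fcgr3, -0.30 to 0.21 for C3ar1, -0.34 to 0.10 for C5ar1 and -0.24 to 0.037 for Tyrobp.

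The count of members past the threshold, 1, was 3 with the filter and with the replicate block, 2 with trend and robust, with array weights and without both arrays numbered 3, 0 with the poly-A covariate and at 0.01, and 0 to 2 with 1 array left out. The count of pathway genes, 8, was 14 with the filter and with trend and robust, 18 with array weights, 13 with the replicate block, with the mean of all probe sets and without both arrays numbered 3, 5 with the offset of 16 and with all probe sets adjusted together, 0 with the poly-A covariate, 1 at 0.01 and 1 to 10 with 1 array left out. Over all genes the count of 421, the base of the 3.4% above, was 764 with array weights, 576 with trend and robust, 544 with the filter, 519 with the replicate block, 63 at 0.01, 0 with the poly-A covariate (701 with an unadjusted p under 0.05), and 47 to 475 with 1 array left out; under the remaining alternatives it was 328 to 479. The replicate numbers were not taken as pairs in the main comparison. Correlations of deviations were 0.022, 0.24 and 0.16 between same-numbered arrays and -0.28 to 0.13 between the others, which does not settle whether arrays were paired. Signal over background limits Fcgr1, C3ar1 and C5ar1.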
